A study of Mus musculus with 12 samples.

Results

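The genes described here encode 8 receptors, or receptor chains, through which blood-forming cells receive growth factors: *Kit*, *Csf1r*, *Csf3r*, *Csf2ra*, *Csf2rb*, *Csf2rb2*, *Epor*, and *Ghr*. The 8 genes were chosen by name with earlier results of these data known, and all 8 were found among the 46078 genes of the count table. RNA-seq had been performed on 12 libraries of mouse hematopoietic stem and progenitor cells from bone marrow of the strain C57BL/6, with 3 libraries in each of 4 groups. The starting population of every group was LSK cells (lineage-negative cells that carry Sca-1 and c-Kit) infected with a lentivirus that carried GFP and either an shRNA against *Rad21* (shRad21), a subunit of the cohesin ring, or an shRNA against luciferase (shLuci), the control. An arm of the study kept the cells in culture and, on day 3, sorted those that were GFP+, Sca-1+, and CD48-. The other transplanted them and took GFP+ LSK cells back from the recipients, at month 3 after transplantation according to the labels, whereas the methods of the study give a later month. These arms are called culture and in vivo. The age of donors and recipients was not given for these libraries, nor was it stated whether the libraries of a group came from separate mice or cultures, so that p-values measure the spread between libraries, which may be technical. c-Kit is a gate of the in vivo sort and not of the culture sort as labelled. The experiments also differed in library kit (TruSeq RNA v2 in culture, SMART-Seq v4 with Nextera XT in vivo), and sort, kit, and setting cannot be told apart.

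Growth factor receptors of blood cells belong to separate structural families. c-Kit (the receptor of stem cell factor, SCF) and the M-CSF receptor encoded by *Csf1r* are receptor tyrosine kinases, whereas the receptors for G-CSF (*Csf3r*), erythropoietin (*Epor*), and growth hormone (*Ghr*) are single-chain cytokine receptors that signal through the associated kinase JAK2 and the transcription factor STAT5, and in the case of G-CSF also strongly through STAT3. The GM-CSF receptor pairs a ligand-binding alpha chain (*Csf2ra*) with a beta chain that carries the signal. Mice have a pair of beta chain genes: *Csf2rb* encodes the chain shared by the receptors for GM-CSF, IL-3, and IL-5, and *Csf2rb2* encodes a chain that serves IL-3 alone. c-Kit is required for stem cell maintenance, the CSF receptors guide granulocyte and macrophage development, and the erythropoietin receptor sustains erythroid precursors.

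To show what lies at the start of these genes, the RefSeq windows from 250 bases before to 50 bases after the start site (GRCm38.p6) were searched on both strands for the core letters of 3 kinds of factor that are known regulators of myeloid and erythroid receptor genes. GATA factors were represented by AGATAA. PU.1, the factor encoded by *Spi1*, was represented by GAGGAA. C/EBP factors were represented by TTGCNNAA. A window was held for 6 of the 8 genes; *Csf1r* and *Csf2rb* were without an entry. Among all 32851 windows of the table, 11.2% held the GATA letters, 28.3% held the PU.1 letters, and 10.8% held the C/EBP letters. The first listed window of each of the 6 genes is shown because their expression is compared in detail below, and the capitals mark the matches.

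Kit: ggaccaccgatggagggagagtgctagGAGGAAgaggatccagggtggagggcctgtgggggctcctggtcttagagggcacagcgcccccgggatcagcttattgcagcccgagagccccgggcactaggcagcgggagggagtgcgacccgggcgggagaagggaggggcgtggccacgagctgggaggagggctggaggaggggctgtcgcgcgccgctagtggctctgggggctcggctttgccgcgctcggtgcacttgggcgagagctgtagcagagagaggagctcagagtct
Csf3r: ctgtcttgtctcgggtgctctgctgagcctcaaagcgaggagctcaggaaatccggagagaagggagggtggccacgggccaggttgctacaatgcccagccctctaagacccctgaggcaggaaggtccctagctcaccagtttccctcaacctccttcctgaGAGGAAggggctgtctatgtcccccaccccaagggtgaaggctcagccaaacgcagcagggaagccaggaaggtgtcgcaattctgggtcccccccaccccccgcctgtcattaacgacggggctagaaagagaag
Csf2ra: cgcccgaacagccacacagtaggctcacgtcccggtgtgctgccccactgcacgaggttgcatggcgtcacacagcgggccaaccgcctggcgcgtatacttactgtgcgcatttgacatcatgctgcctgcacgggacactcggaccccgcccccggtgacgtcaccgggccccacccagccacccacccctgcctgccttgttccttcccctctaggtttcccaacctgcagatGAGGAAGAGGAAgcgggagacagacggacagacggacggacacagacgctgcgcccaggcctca
Csf2rb2: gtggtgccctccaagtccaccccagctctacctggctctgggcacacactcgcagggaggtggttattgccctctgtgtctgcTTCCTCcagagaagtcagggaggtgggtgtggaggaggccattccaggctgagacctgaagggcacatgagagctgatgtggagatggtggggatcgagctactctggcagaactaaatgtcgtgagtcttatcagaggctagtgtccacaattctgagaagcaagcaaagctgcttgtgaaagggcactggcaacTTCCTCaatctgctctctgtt
Epor: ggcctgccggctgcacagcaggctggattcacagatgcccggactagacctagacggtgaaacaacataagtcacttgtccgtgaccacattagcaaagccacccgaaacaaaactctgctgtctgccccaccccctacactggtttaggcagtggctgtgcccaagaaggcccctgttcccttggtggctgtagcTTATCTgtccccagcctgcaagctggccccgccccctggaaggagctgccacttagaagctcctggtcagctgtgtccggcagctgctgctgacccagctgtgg
Ghr: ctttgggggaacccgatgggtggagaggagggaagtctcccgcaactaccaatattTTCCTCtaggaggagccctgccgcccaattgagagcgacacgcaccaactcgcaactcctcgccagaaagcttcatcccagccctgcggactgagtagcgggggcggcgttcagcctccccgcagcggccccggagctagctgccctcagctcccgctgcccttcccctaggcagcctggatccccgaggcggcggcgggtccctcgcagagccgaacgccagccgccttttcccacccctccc

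The *Kit* window (chr5:75574737-75575036, plus strand) held the PU.1 letters at position -223 from the start site, and the *Csf3r* window (chr4:126024409-126024708, plus strand) held them at position -86. The *Csf2ra* window (chr19:61228369-61228668, minus strand) held a pair of adjoining PU.1 matches, at positions -14 and -8. The *Csf2rb2* window (chr15:78305672-78305971, minus strand) held the PU.1 letters on the opposite strand at positions -167 and 30. The *Epor* window (chr9:21963527-21963826, minus strand) held the GATA letters, read on the opposite strand, at position -54 and no PU.1 letters. The *Ghr* window (chr15:3583303-3583602, minus strand) held the PU.1 letters on the opposite strand at position -194. The table also lists another start site for *Kit* a few bases on, with the same PU.1 match, and another for *Ghr* (chr15:3581793-3582092), whose window held none of these letters. The PU.1 letters were present at genes that fell, rose, or showed no call with *Rad21* knockdown (below), and no C/EBP letters were found in any of these windows. A match of letters is a description of the sequence, not evidence of binding.

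The beta chain genes needed separate care because they are near copies of each other. *Csf2rb* (ENSMUSG00000071713, chr15:78325752-78353847, plus strand) and *Csf2rb2* (ENSMUSG00000071714, chr15:78282507-78305721, minus strand) lie 20030 bases apart in GRCm38, and their coding sequences were identical at 95.2% of 2628 aligned bases. A stretch of 60 coding bases in which they differ most is shown, with the 13 differing bases in capitals.

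Csf2rb: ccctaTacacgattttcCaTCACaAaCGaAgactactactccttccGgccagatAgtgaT
Csf2rb2: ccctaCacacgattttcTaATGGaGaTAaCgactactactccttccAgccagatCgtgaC

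These stretches lie at chr15:78338893-78338952 (plus strand) and chr15:78294379-78294438 (minus strand), in coding exons of GRCm38 as annotated by GENCODE M21. At the read length of 51 bases, 12% of the windows of *Csf2rb* transcripts and 18% of those of *Csf2rb2* also occurred in the other gene. Reads from those windows cannot be assigned by sequence, and the counts of both genes are therefore uncertain to that extent. Sequence shared between the remaining receptors was 0% at this length.

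The libraries held between 15235129 and 29846689 counted reads. Levels of a gene are given below in CPM, its count scaled to the size of the library after TMM normalization, and log2 fold changes compare shRad21 with shLuci unless another comparison is named. *Rad21* itself, the target of the shRNA, fell to 34.8% of control in culture (log2 fold change -1.52, SE 0.0885, edgeR adjusted p = 1.16e-05) and to 37.2% in vivo (-1.43, SE 0.0707, adjusted p = 8.82e-06). Of the genes behind the sorts, *Ly6a*, which encodes Sca-1, measured 85.8 to 272 CPM over all libraries, and *Cd48* measured 29.4 to 50.2 CPM in culture, where CD48- cells had been sorted, and 136 to 301 CPM in vivo. *Cd3e*, *Cd8a*, and *Ly6g*, antigens of mature T cells and granulocytes, were at 3 counts or fewer in every culture library. In vivo, only *Cd3e* among the 8 lineage antigens was that low in every library. *Itgam*, which encodes the myeloid antigen CD11b, measured 22.1 to 45.8 CPM in shLuci and 5.4 to 11.2 CPM in shRad21 libraries of the culture. In vivo it measured 39.5 to 62.2 CPM and 19.5 to 38.5 CPM. Of the lineage antigens tested, 1 of 4 fell with knockdown in culture and 2 of 5 in vivo, and none rose. Of all genes tested, 8.06% fell in culture and 5.32% in vivo.

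Levels of different receptors were compared as reads per kilobase of exon, scaled to library size (RPKM). In control cells of the culture, *Kit* ranked first (83.1 ± 8.72 RPKM, SD, n = 3), followed by *Csf3r* (44.0 ± 2.2), *Csf2rb* (32.3 ± 4.19), *Csf2rb2* (20.3 ± 3.55), *Csf2ra* (15.2 ± 0.911), *Epor* (6.84 ± 0.695), *Csf1r* (3.34 ± 0.873), and *Ghr* (0.729 ± 0.0216). No neighbours in that order overlapped in their ranges over 3 libraries. In control cells in vivo, *Kit* (102 ± 6.92 RPKM) and *Csf3r* (71.5 ± 6.19) again ranked first and second, but both beta chains stood lower, with *Csf2rb* at 8.76 ± 1.65 and *Csf2rb2* at 1.37 ± 0.369. There, *Csf1r* (3.97 ± 1.45) and *Epor* (3.92 ± 0.503) overlapped and could not be ordered. After *Rad21* knockdown in culture, *Kit* at 30.9 ± 1.64 RPKM no longer stood apart from *Csf2rb* at 31.9 ± 5.1, *Csf2rb2* (18.3 to 29.3) overlapped with *Csf3r* (19.5 to 20.4), and *Csf1r* (0.94 ± 0.193) overlapped with *Ghr* (1.1 ± 0.0846). After knockdown in vivo, *Kit* (75.4 ± 5.37) overlapped with *Csf3r* (62.0 ± 8.31) and *Csf2rb* (8.03 ± 2.0) with *Epor* (5.73 ± 1.06), and *Ghr* (1.85 ± 0.186), *Csf1r* (1.62 ± 0.317), and *Csf2rb2* (1.46 ± 0.293) formed an overlapping group at the bottom. When the longest transcript was used as the length in place of all exons, the control level of *Kit* in culture was 141 RPKM and that of *Ghr* 1.58. Among controls, *Csf2rb* (48.0) and *Csf3r* (45.7) in culture, *Csf2rb2* (20.3) and *Csf2ra* (19.1) in culture, and *Ghr* (1.71) and *Csf2rb2* (1.37) in vivo then overlapped. Among knockdown libraries, *Ghr* (2.38) then stood above *Csf1r* (1.15) in culture without overlap. In vivo *Kit* (128) stood above *Csf3r* (64.3), *Csf2rb* (11.9) above *Epor* (6.48), and *Ghr* (4.02) above *Csf1r* (1.98) in the same way.

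**Figure D1:**
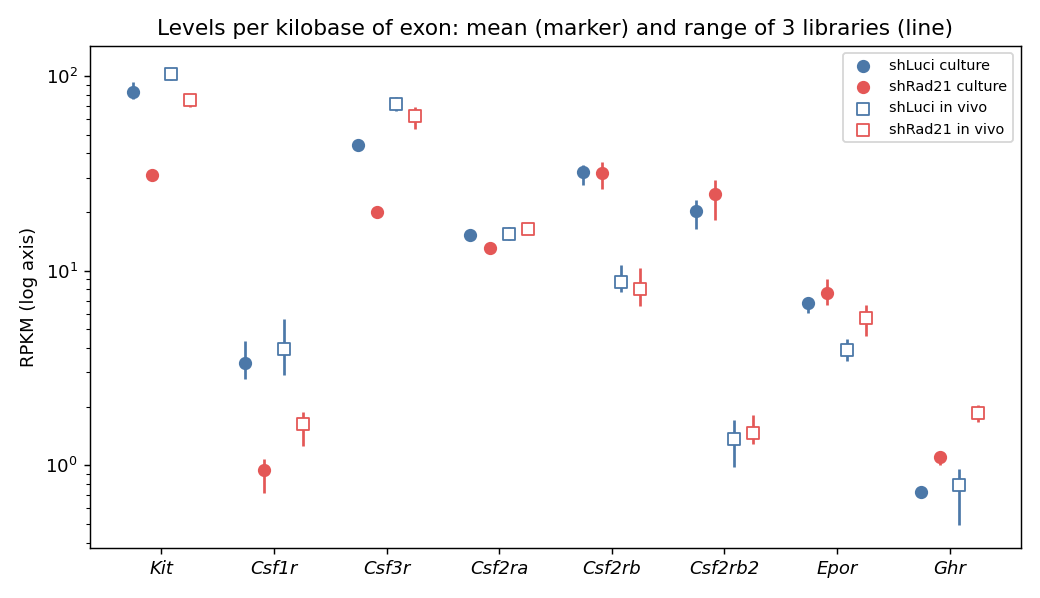
Level of each receptor gene in RPKM (log axis) in the 4 groups; markers show the mean and lines the lowest and highest of 3 libraries, with circles for culture and squares for in vivo. *Kit* of control cells sits highest in both experiments (83.1 and 102 RPKM), and *Csf2rb2* shows the widest gap between the experiments (20.3 against 1.37 RPKM).

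The first comparison asked which receptor genes differed between shRad21 and shLuci cells within each experiment. In culture, *Kit*, *Csf1r*, and *Csf3r* fell and *Ghr* rose, so that 4 of 8 genes passed an adjusted p of 0.05. Of the 15543 genes tested there, 14.2% passed, 6.18% as higher and 8.06% as lower. In vivo, *Kit* and *Csf1r* fell and *Ghr* rose, 3 of 8 genes, where 11.0% of the 15938 genes tested passed, 5.65% as higher and 5.32% as lower. The levels of the groups did not overlap for 5 of 8 receptor genes in culture (31.5% of all genes tested) and for 4 of 8 in vivo (29.1%). The median log2 fold change of the 8 genes was -0.1 in culture and -0.01 in vivo, with genes on both sides of 0; that of all genes tested was 0 in each experiment. All 8 genes passed the filter on low counts in both experiments. As the genes were chosen with earlier results known, these counts describe the 8 genes and are not a test of the set.

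**Figure D2:**
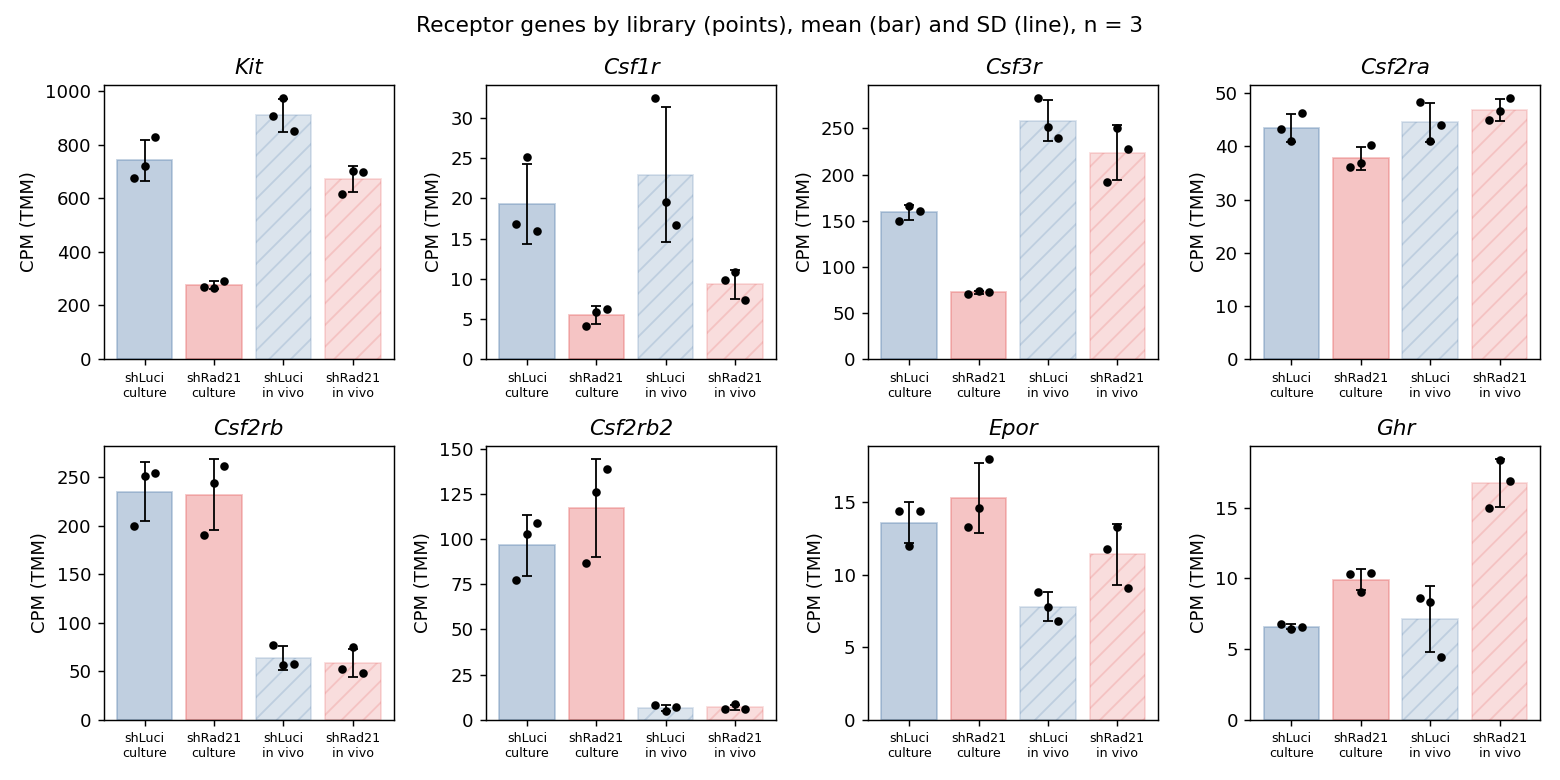
Normalized level of each receptor gene in CPM (linear axes from 0) in every library (points), with the mean (bars) and SD (lines) of 3 libraries per group; hatched bars are in vivo. *Kit* and *Csf1r* are lower and *Ghr* is higher in all 3 shRad21 libraries of each experiment, whereas *Csf3r* separates in culture alone.

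*Kit* had the highest level per length of the 8 receptors in control cells of both experiments, and in knockdown cells of the culture it could not be ordered against *Csf2rb*. In culture it was measured at 676, 720, and 827 CPM in the shLuci libraries and at 269, 266, and 293 CPM in the shRad21 libraries. All 3 knockdown libraries were below every control library, by a wide margin. *Kit* reached 37.4% of the control level (log2 fold change -1.42, SE 0.094, edgeR adjusted p = 1.53e-05). In vivo, where the cells had been sorted for c-Kit protein, the values were 905, 974, and 851 CPM in shLuci and 617, 702, and 697 CPM in shRad21 libraries. The groups were again separate, but closer. *Kit* stood at 74.6% of control there (log2 fold change -0.42, SE 0.0762, adjusted p = 0.00659). *Kit* (ENSMUSG00000005672) spans chr5:75574916-75656722 in GRCm38. Of the other sort genes, *Ly6a* had a log2 fold change of -0.62 in culture (adjusted p = 0.117) and rose by 0.45 in vivo (adjusted p = 0.00908), and *Cd48* had values of 0.15 (adjusted p = 0.658) and -0.43 (adjusted p = 0.269). *Cd34*, a progenitor marker on which neither sort was gated, had a log2 fold change of 0.2 in culture (adjusted p = 0.127) and fell by 0.26 in vivo (adjusted p = 0.0316). Mast cells also carry c-Kit, and genes of mast cells and basophils were listed together. *Cpa3* (mast cell carboxypeptidase) rose by 2.03 in culture (adjusted p = 0.00493) and by 1.09 in vivo (adjusted p = 0.00576). *Tpsab1* was at 3 counts or fewer in every library of both experiments. In all, 1 of 5 tested genes of that list passed as higher in culture and 2 of 7 in vivo, and none passed as lower. Of all genes tested, 6.18% passed as higher in culture and 5.65% in vivo. The tested genes of the mast cell and basophil list went both ways. Their median log2 fold change was 0.01 in culture (from -0.37 to 2.25) and -0.05 in vivo (from -1 to 1.64). The summed level of the list was 31.9 to 115 CPM in shLuci and 39.2 to 179 CPM in shRad21 libraries of the culture. In vivo it was 111 to 134 CPM against 145 to 221 CPM. The part of these cells in the *Kit* result was not tested. In these bulk libraries, fewer cells with a transcript and less transcript per cell cannot be told apart.

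*Csf1r*, the M-CSF receptor of the monocyte and macrophage lineage, showed the largest fall among the receptors in culture. Its levels there were 16.8, 25.1, and 16.0 CPM in shLuci and 4.16, 5.86, and 6.26 CPM in shRad21 libraries. Every knockdown library lay below every control library. The fall was to 28.3% of control (log2 fold change -1.82, SE 0.209, adjusted p = 3e-04). In vivo, the shLuci libraries held 32.5, 19.6, and 16.7 CPM and the shRad21 libraries 9.88, 10.8, and 7.29 CPM. The groups were separate, and replicate 1 of the control was far above its own group. *Csf1r* fell to 41.2% of control (log2 fold change -1.28, SE 0.248, adjusted p = 0.0096), and without replicate 3 of shRad21 the adjusted p was 0.052. *Csf1r* (ENSMUSG00000024621) spans chr18:61100598-61132149 in GRCm38, and 15.1% of its exonic bases overlap *Hmgxb3* on the opposite strand. The kits used do not keep the strand of origin, so reads there cannot be told apart; *Hmgxb3* had log2 fold changes of -0.19 (adjusted p = 0.116) and 0 (adjusted p = 0.997).

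*Csf3r*, the G-CSF receptor of granulocytes and their precursors (ENSMUSG00000028859, chr4:126024550-126044440), differed between experiments. In culture it measured 150, 166, and 161 CPM in shLuci and 70.5, 73.6, and 72.9 CPM in shRad21 libraries. The knockdown libraries were tightly grouped, below all controls. The level was 45.7% of control (log2 fold change -1.13, SE 0.0751, adjusted p = 1.53e-05). In vivo, the values of 283, 252, and 240 CPM in shLuci and 192, 251, and 228 CPM in shRad21 libraries overlapped. The log2 fold change was -0.19 (SE 0.103, 95% interval -0.39 to 0.01, adjusted p = 0.304).

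*Csf1r* and *Csf3r* are receptors of monocytes, granulocytes, and their precursors, and the markers of these cells were measured beside them. In culture, 9 of the 17 genes of that list were tested, 5 fell, and none rose (8.06% of all genes tested fell). The summed level of the list was 195 to 263 CPM in shLuci and 179 to 191 CPM in shRad21 libraries of the culture. In vivo, 3 of 17 fell, none rose, and 14 did not pass (5.32% of all genes tested fell). The sum there was 2280 to 2740 CPM against 1810 to 1940 CPM. *Mpo*, the myeloperoxidase of granulocyte precursors, fell by 1.19 in culture (adjusted p = 0.037) and by 0.65 in vivo (adjusted p = 0.019) on the log2 scale. *Lyz2*, the lysozyme gene and the most abundant marker of the list in culture, had log2 fold changes of 0.08 (adjusted p = 0.731) and 0.1 (adjusted p = 0.51). *Ngp*, *Camp*, and *Mmp9*, genes of late granulocytes, were at 3 counts or fewer in every culture library. In vivo, *Ngp* measured 47.2 to 91.5 CPM in shLuci and 26.5 to 86.2 CPM in shRad21 libraries. *Camp* measured 11.9 to 23.9 CPM and 5.97 to 22.7 CPM there, and *Mmp9* at most 2.01 CPM. The monocyte and macrophage genes *Cd14*, *F13a1*, and *Adgre1* had means of 2.05, 5.91, and 1.28 CPM in shLuci libraries of the culture. In shRad21 libraries of the culture the means were 0.508, 1.26, and 0.068 CPM. *F13a1* ran from 2.38 to 11.6 CPM among those shLuci libraries. In vivo the means were 1.06, 25.7, and 1.3 CPM in shLuci and 0.703, 18.3, and 0.55 CPM in shRad21 libraries. The part of granulocytes and monocytes in the receptor results was not tested.

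The GM-CSF receptor chains showed no call with knockdown. *Csf2ra*, the alpha chain (ENSMUSG00000059326, chr19:61223957-61228429), measured 43.2, 41.0, and 46.3 CPM in shLuci and 36.2, 36.8, and 40.2 CPM in shRad21 libraries of the culture. These groups did not overlap, but the difference was small (log2 fold change -0.2, SE 0.09, adjusted p = 0.187). In vivo, its group means were 44.5 ± 3.6 and 46.9 ± 2.11 CPM (0.09, 95% interval -0.08 to 0.26, adjusted p = 0.588). *Csf2rb*, the shared beta chain, measured 200, 251, and 255 CPM in shLuci and 191, 244, and 262 CPM in shRad21 libraries of the culture. The groups interleaved, with the lowest value of each in replicate 1 (log2 fold change -0.01, 95% interval -0.26 to 0.24, adjusted p = 0.975). In vivo it stood at 63.7 ± 12.0 and 58.4 ± 14.5 CPM (-0.11, 95% interval -0.45 to 0.23, adjusted p = 0.777).

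*Csf2rb2*, the beta chain that serves IL-3 alone, measured 77.4, 103, and 109 CPM in shLuci and 86.6, 126, and 139 CPM in shRad21 libraries of the culture. Within each replicate number the knockdown library was the higher, although the groups overlapped. The log2 fold change was 0.28 (SE 0.168, adjusted p = 0.32). With the replicate number as a block, the same value had an adjusted p of 0.021, and without replicate 1 of shRad21 it was 0.47 (adjusted p = 0.0452). In vivo, its levels were 6.51 ± 1.75 and 6.92 ± 1.39 CPM (0.11, 95% interval -0.35 to 0.56, adjusted p = 0.842). As a share of the counts of both beta chains, *Csf2rb2* made up 27.9 to 30% in shLuci and 31.2 to 34.6% in shRad21 libraries of the culture. In vivo the shares were 7.59 to 10.6% and 10.2 to 11.3%. The culture groups did not overlap in this share, whereas the in vivo groups did; an exact permutation test over 3 against 3 libraries cannot go below 0.1, and none was run.

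**Figure D3:**
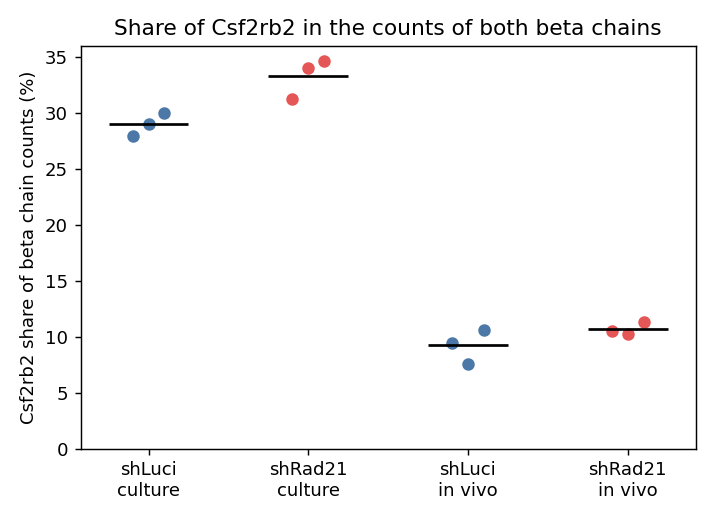
Share of *Csf2rb2* in the summed counts of *Csf2rb* and *Csf2rb2* (percent, axis from 0) per library (points), with the group mean (lines). The culture libraries lie between 27.9% and 34.6%, and the in vivo libraries between 7.59% and 11.3%.

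*Epor*, the erythropoietin receptor (ENSMUSG00000006235, chr9:21958897-21963506), measured 14.4, 12.0, and 14.4 CPM in shLuci and 13.3, 14.6, and 18.0 CPM in shRad21 libraries of the culture. The groups overlapped (log2 fold change 0.18, SE 0.143, adjusted p = 0.474). In vivo, the shLuci libraries held 8.8, 7.8, and 6.8 CPM and the shRad21 libraries 11.8, 13.3, and 9.12 CPM. There the groups were separate, with a log2 fold change of 0.56 (SE 0.179) that missed the threshold in edgeR (adjusted p = 0.0771) and passed it in DESeq2 (adjusted p = 0.0473). Erythroid genes moved the other way: in vivo 7 of the 10 tested genes of that list fell and none rose (5.32% of all genes tested fell). Their sum was 141 to 178 CPM in shLuci and 75.1 to 82.8 CPM in shRad21 libraries. In culture 2 of 3 tested erythroid genes fell (8.06% of all genes tested fell). The transferrin receptor *Tfrc*, the most abundant erythroid gene, fell by 0.83 (edgeR adjusted p = 9.73e-05). *Hba-a1*, *Car1*, and *Tspo2* were at 3 counts or fewer in every culture library. The part of erythroid cells in the *Epor* values was not tested.

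*Ghr*, the growth hormone receptor (ENSMUSG00000055737, chr15:3317760-3583492), was the only receptor of the 8 that passed the threshold as higher with knockdown. In culture it measured 6.8, 6.41, and 6.58 CPM in shLuci and 10.3, 9.04, and 10.4 CPM in shRad21 libraries. The groups were separate. The log2 fold change was 0.6 (SE 0.137, adjusted p = 0.014), and the adjusted p was 0.0561 without replicate 2 of shLuci, 0.0591 without replicate 3 of shRad21, and 0.0743 in a single model of all 12 libraries. In vivo, it measured 8.62, 8.3, and 4.46 CPM in shLuci and 15, 18.4, and 16.9 CPM in shRad21 libraries. Every knockdown library exceeded every control, and *Ghr* rose to 238% of control (log2 fold change 1.25, SE 0.23, adjusted p = 0.00749). Marker counts here stand against all genes tested, of which 6.18% rose and 8.06% fell in culture, and 5.65% rose and 5.32% fell in vivo. Among stem cell genes, 4 of 7 rose and none fell in each experiment. *Slamf1*, which encodes CD150, was among them (1.21 in culture, edgeR adjusted p = 0.000803, and 2.05 in vivo, adjusted p = 2.18e-05). The summed level of the stem cell list was 676 to 797 CPM in shLuci and 941 to 1100 CPM in shRad21 libraries of the culture, and 462 to 563 CPM against 560 to 726 CPM in vivo. Of the megakaryocyte genes, 3 of 5 tested rose and 2 fell in culture, and the summed level of the list overlapped (643 to 762 CPM in shLuci and 704 to 1030 CPM in shRad21 libraries). In vivo 4 of 6 rose and none fell, with a sum of 256 to 316 CPM against 589 to 731 CPM. The part of these cells in the *Ghr* result was not tested.

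**Figure D4:**
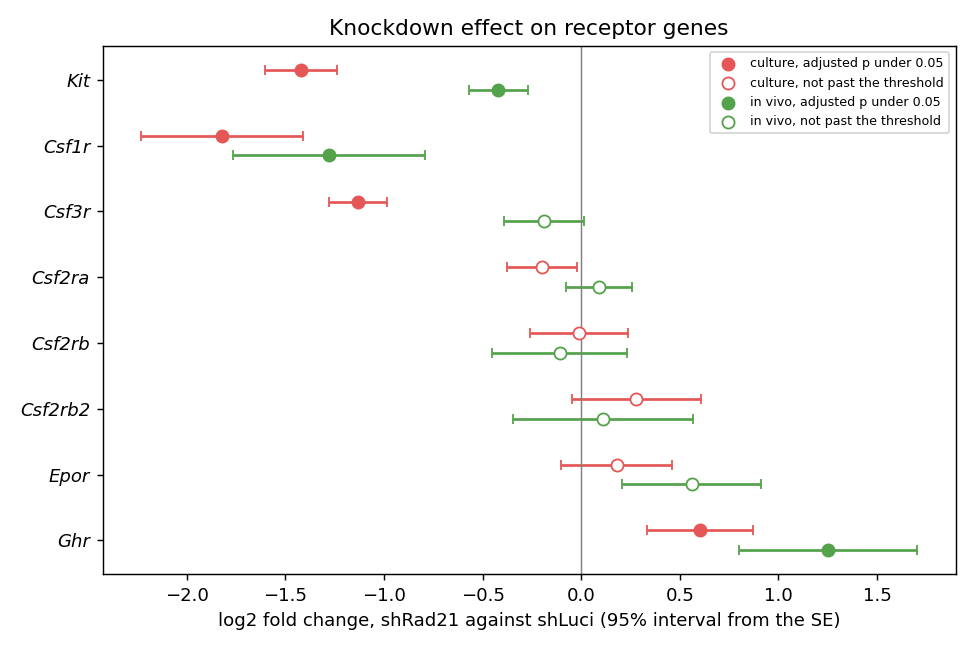
Log2 fold change of each receptor gene, shRad21 against shLuci, in culture and in vivo (points), with 95% intervals from the SE and the normal distribution (lines); filled points have an edgeR adjusted p under 0.05. *Csf1r* has the lowest values (-1.82 and -1.28) and *Ghr* the highest (0.6 and 1.25).

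Whether the knockdown effect differed between the experiments was tested by the interaction of knockdown and experiment over all 12 libraries, which 4.67% of 17050 genes passed. It was passed by *Kit*, whose change was lower by 0.99 in culture (interaction log2 -0.99, SE 0.12, adjusted p = 0.000367), and by *Csf3r* (-0.93, SE 0.131, adjusted p = 0.0011). The differences for *Csf1r* (-0.53, 95% interval -1.24 to 0.17, adjusted p = 0.502) and *Ghr* (-0.64, 95% interval -1.19 to -0.09, adjusted p = 0.242) did not pass. Those of *Csf2ra* (-0.28), *Epor* (-0.37), *Csf2rb* (0.11), and *Csf2rb2* (0.19) did not pass either.

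Control cells of the experiments were then set side by side. The beta chains were higher in culture, *Csf2rb* by a log2 fold change of 1.88 (SE 0.174, adjusted p = 1.45e-07) and *Csf2rb2* by 3.88 (SE 0.223, adjusted p = 7.54e-10), that is 14.7-fold. *Epor* was higher by 0.8 (adjusted p = 0.000634). *Csf3r* and *Kit* were lower in culture, with log2 fold changes of -0.7 (adjusted p = 6.62e-06) and -0.3 (adjusted p = 0.00528). The values of *Csf1r* (-0.25, adjusted p = 0.37), *Csf2ra* (-0.03, adjusted p = 0.734), and *Ghr* (-0.11, adjusted p = 0.633) did not pass. Without replicate 3 of shLuci in vivo, *Ghr* passed as lower in culture (-0.36, adjusted p = 0.0415). These 5 of 8 calls stand against 74.2% of all 17050 genes in this comparison, 37.1% as higher and 37.1% as lower, so that a call here is common; kit and setting cannot be told apart. The alpha chain *Il3ra*, which pairs with the beta chains for IL-3, was higher in culture by 0.94 (adjusted p = 6.47e-05).

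Genes around the receptors were taken from lists, which were also chosen with earlier results known. Ligands were nearly absent from these cells: of 10 ligand genes in the table, *Csf1*, which encodes M-CSF, was the single gene with enough counts to test, and it showed no call with knockdown (-0.03 in culture, adjusted p = 0.931, and -0.22 in vivo, adjusted p = 0.463). The other 9 had group means of at most 0.569 CPM. Among partner chains and close relatives, *Flt3*, a receptor kinase of early lymphoid and myeloid progenitors, fell from 190 ± 21.6 to 86.5 ± 26.2 CPM in culture (log2 fold change -1.12, adjusted p = 0.00168) and from 699 ± 9.17 to 227 ± 33.5 CPM in vivo (-1.61, adjusted p = 2.48e-05). Thus *Flt3* moved in the direction of *Kit* and *Csf1r*. From the same list, *Il3ra*, *Pdgfrb*, *Il6st*, and *Lifr* were tested and showed no call in either experiment.

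The counts of the next lists stand against all genes tested, of which 14.2% passed in culture and 11.0% in vivo. Of 15 signal relays, 3 fell and none rose in culture (median of the list 0.02): the Src-family kinase *Lyn* by 0.66, the kinase *Tec* by 0.63, and the phospholipase *Plcg2* by 0.61. In vivo, 2 rose and none fell (median 0.06): the phosphatase *Ptpn11* (0.38) and *Stat3* (0.36). *Jak2*, *Stat5a*, and *Stat5b*, the core of the pathway shared by the cytokine receptors, had values between -0.12 and 0.15 and passed in neither experiment. Of 13 brakes on the receptors, a single gene was called in culture (median of the list -0.09): *Sh2b3*, an adaptor that restrains JAK2, rose (0.41, adjusted p = 0.00819). In vivo (median 0.05) 3 rose, *Socs2* (1.75, adjusted p = 0.0164), *Cish* (1.23, adjusted p = 0.0156), and *Spred1* (0.3, adjusted p = 0.0243), and the ubiquitin ligase *Cblb* fell (-0.44, adjusted p = 0.0422). *Socs2* and *Cish* are feedback inhibitors that cytokine receptors induce through STAT5. Among 8 further genes commonly induced through STAT5, *Pim2*, *Myc*, and *Bcl2l1*, which support growth and survival, fell in culture (-1.61, -1.11, and -1.1), and the cyclin *Ccnd2* rose (0.3), with a list median of -0.4. In vivo *Pim2* rose (0.52, adjusted p = 0.0439), and the other 7 showed no call (median 0.15).

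Transcription factors known to act at receptor genes of this kind were called for 9 of 11 tested in culture (14.2% of all genes tested) and 8 of 12 in vivo (11.0% of all genes tested). The list was chosen with earlier results known. *Spi1*, which encodes PU.1, a known regulator of *Csf1r*, *Csf2ra*, and *Csf3r*, fell from 148 ± 8.25 to 95.5 ± 10.2 CPM in culture (log2 fold change -0.62, adjusted p = 0.00133) and from 178 ± 10.4 to 114 ± 4.3 CPM in vivo (-0.64, adjusted p = 0.000417). *Cebpa*, which acts with PU.1 in granulocyte and monocyte precursors, had values of -0.98 (adjusted p = 0.000872) and -0.99 (adjusted p = 0.00118). *Irf8*, a factor of monocyte development, fell by 1.07 and 1.76. Of the erythroid and stem cell factors, *Gata2* rose by 0.65 and 0.63 and *Tal1* by 0.55 and 0.39, while *Lmo2* fell by 0.48 and 0.35. *Gata1* rose in culture from a low level (1.67, adjusted p = 0.0143), and *Klf1* fell in vivo (-1.42, adjusted p = 0.0015). In culture *Runx1* rose (0.71) and *Cebpb* fell (-1.45), and in vivo *Myb* fell (-0.28). The median log2 fold change of the factors was -0.27 in culture and -0.31 in vivo, and no test of the list was made.

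**Figure D5:**
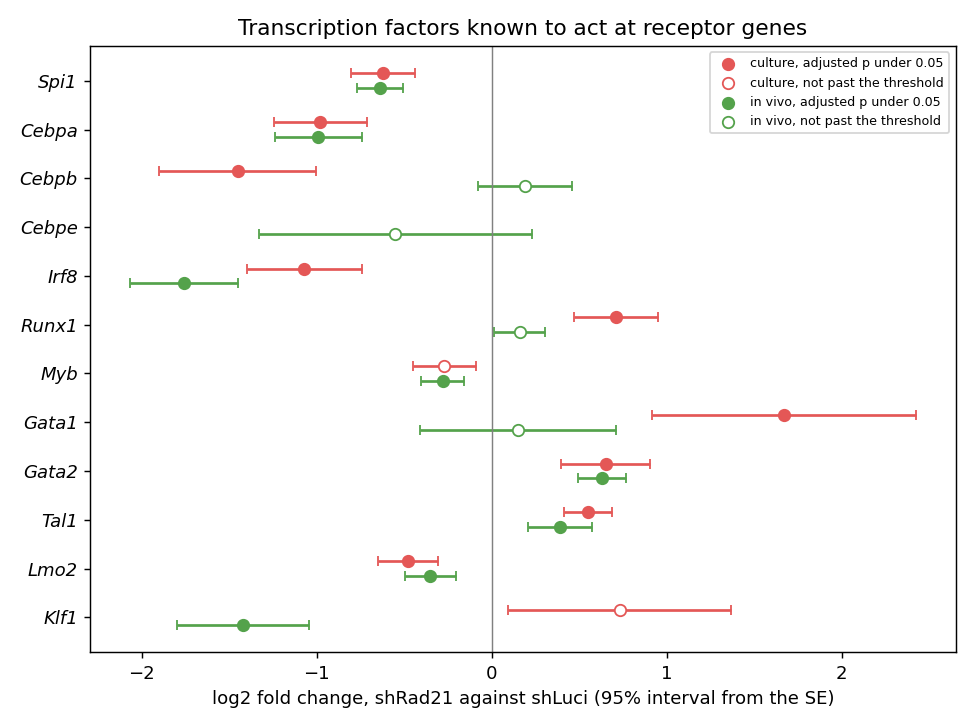
Log2 fold change, shRad21 against shLuci, of 12 transcription factors known to act at receptor genes, in culture and in vivo, with 95% intervals from the SE and the normal distribution; filled points have an edgeR adjusted p under 0.05, and *Cebpe* was not tested in culture. *Spi1* and *Cebpa* lie at nearly the same value in both experiments, whereas *Cebpb* and *Klf1* differ.

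Across the 12 libraries, after each experiment had been centred on its own mean, *Kit* and *Csf3r* followed each other most closely (Pearson r = 0.972), and *Csf1r* followed both (r = 0.874 with *Kit* and 0.869 with *Csf3r*). *Epor* and *Ghr* had r = 0.8, and the beta chains r = 0.769. *Csf2rb* had r = 0.16 with *Kit*. These values describe libraries that share the knockdown contrast and are given without a test. Among 10426 other genes with an average of at least 10 CPM, those most like *Kit* were *Irak2* (r = 0.972) and *Lhfpl2* (0.971), those most like *Csf1r* were *Milr1* (0.976) and *Atp8b4* (0.973), and those most like *Csf3r* were *S1pr3* (0.978) and *Znrf1* (0.976). The genes most like *Ghr* were *F5*, which encodes coagulation factor V (0.974), and *Slc27a6* (0.965). For *Csf2ra* they were *Gpat4* (0.944) and *Syngr1* (0.91), for *Csf2rb* *I830077J02Rik* (0.902) and *Lipa* (0.893), for *Csf2rb2* *Pank2* (0.923) and *Cnot2* (0.912), and for *Epor* *Manba* (0.9) and *Cemip2* (0.881).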

How the data were processed

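Gene counts of 12 mouse RNA-seq libraries were analyzed. According to the methods and processing notes, the authors removed rRNA reads (SortMeRNA), trimmed reads (Prinseq), aligned them to GRCm38 with TopHat2 2.0.11, and counted them per gene with HTSeq 0.6.1; the strand setting and annotation release are not given in the sources used here. The deposited values are raw counts per Ensembl gene, with every column mapped to a sample by its title. The 8 receptor genes and all gene lists were chosen with earlier results of these data known.

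Counts were tested with edgeR 4.0.16 (TMM, filterByExpr with a minimum of 10 counts, quasi-likelihood F test, Benjamini-Hochberg adjustment over all genes tested, threshold 0.05), for each experiment on its 6 libraries and for control cells and the interaction on all 12. CPM used TMM factors over 12 libraries, and RPKM the merged exons of GENCODE M21. Alternatives were DESeq2 1.42.0 (the study's tool), other scalings and filters, a replicate block (except between experiments), a model of all 12 libraries, and omission of each library. The fits were tested on simulated data with 200 genes changed by a log2 of 1, drawn from genes above a minimum mean count. They recovered 79% of these in culture, 79% in vivo, 75.5% for control cells, and 60% for the interaction. False calls were 4.24% of all calls in culture, 8.14% in vivo, 5.03% for control cells, and 4% for the interaction. Named genes were the 8 receptors, *Rad21*, up to 4 called genes per list and experiment, and the 2 genes most like each receptor; marker genes, further list members, and *Hmgxb3* were named after their values were seen, and 1 gene of the partner list is not reported here. In culture, same-numbered libraries deviated together (r = 0.17 to 0.217, against -0.25 to 0.0441 for pairs of different number). In vivo the values were closer, at 0.0341 to 0.0575 against -0.0778 to 0.0242. The numbers in the labels are the only source of a pairing. Sequences are from RefSeq and the GRCm38 reference. A count of 3 corresponded to 0.107 to 0.21 CPM.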

Additional observations from a re-analysis of the deposited data

Results flagged for a closer look

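For 11 genes the knockdown effect differed between culture and in vivo by the interaction test in edgeR, among the receptors and the lists around them. *Kit* (-0.99, adjusted p = 0.000367) and *Csf3r* (-0.93, adjusted p = 0.0011) are the receptors. Of the relays, *Lyn* (-0.6, adjusted p = 0.0479) and *Plcg2* (-0.55, adjusted p = 0.019) had negative interaction values, as did the brakes *Cish* (-1.59, adjusted p = 0.0116) and *Spred1* (-0.39, adjusted p = 0.045). Of the genes induced through STAT5, *Pim2* (-2.13, adjusted p = 6.8e-05), *Bcl2l1* (-0.88, adjusted p = 0.0116), and *Myc* (-0.97, adjusted p = 0.00127) had negative interaction values too. The factors were *Cebpb* (-1.63, adjusted p = 0.00446) and, in the other direction, *Klf1* (2.16, adjusted p = 0.00365). A negative value means a lower log2 fold change with knockdown in culture than in vivo. It does not describe the level of the gene in either experiment. Sort, library kit, and setting differ between the experiments and cannot be told apart. Groups of 3 libraries were too small for a test of single outlying libraries.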

How the results depend on the processing

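Of 14 receptor results past the threshold over the 4 comparisons, 12 kept their direction and their call under every alternative run. The exceptions were *Ghr* in culture, with adjusted p-values up to 0.0743, and *Csf1r* in vivo, with 0.052 without replicate 3 of shRad21. Of 18 results not past it, 4 passed under an alternative: *Csf2rb2* in culture (without the filter 0.3, adjusted p = 0.0173; with the replicate block 0.28, adjusted p = 0.021), *Epor* in vivo (adjusted p = 0.033 to 0.219), and in control cells *Csf2ra* with library size only (-0.21, adjusted p = 0.0345) and *Ghr* without replicate 3 of shLuci in vivo (-0.36, adjusted p = 0.0415). The replicate block, a pairing by number within each experiment, changed no other receptor call in culture, in vivo, or for the interaction. No paired analysis was possible for control cells because a replicate number does not link a culture library to an in vivo library. Without the filter, the edgeR adjusted p of *Kit* in culture was 3.49e-46, against 1.53e-05 in the main fit. Its log2 fold change was nearly the same (-1.4 against -1.42), so calls without the filter carry less weight.

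Some log2 fold changes that were not past the threshold changed sign. *Csf2rb* in culture was 0.01 with library size only and 0.01 without the filter, and ran from -0.11 to 0.13 when libraries were left out in turn. On leaving out libraries, *Csf2rb* in vivo ran from -0.33 to 0.06, *Csf2rb2* in vivo from -0.08 to 0.29, and the *Csf2rb* interaction from -0.06 to 0.33. In control cells, *Csf1r* ran from -0.48 to 0.09, *Csf2ra* from -0.09 to 0.03, and *Ghr* from -0.36 to 0.06. The cause was not tested.

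Counts over all genes moved by more than 1.5 times for the in vivo knockdown without the filter (2829 against 1749) and for the interaction with DESeq2 (1294 against 796) and without the filter (1409). On leaving out libraries they ran from 1352 to 2817 in culture, from 951 to 1562 in vivo, and from 492 to 845 for the interaction. Against TMM, the median of all genes in control cells shifted by -0.12 with upper-quartile scaling and by -0.17 with library size only. Low counts per library limit precision. Among the lowest were 92 to 190 for *Csf2rb2* in vivo and 101 to 176 for *Csf1r* in knockdown cells of the culture. *Ghr* in control cells had 97 to 141 counts in culture and 101 to 194 in vivo. *Epor* had 154 to 198 in control cells in vivo.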
